A study of Anethum foeniculum with 6 samples.

Results

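Fennel is an aromatic herb of the carrot family, grown here hydroponically for its leaves, and the transcripts that kept the most even level across its sequenced leaf RNA were examined. They are 200 genes chosen by their coefficient of variation (CV, the SD divided by the mean) over 6 libraries, the lowest of all, measured on counts per 1000000 of the library's total (CPM). They were taken from 6318 genes that averaged 20 CPM or more, after the 100 genes most abundant in control leaves were set aside, out of 127290 assembled genes in all. Of the 6 libraries, 3 (red) came from plants under ambient sunlight supplemented with red light-emitting diodes (LED) of a narrow wavelength band and 3 (control) from plants under ambient sunlight alone. The labels name the libraries biological replicates without saying whether each held 1 plant or several, so the spread between libraries may be partly technical. The genes carry only the identifiers of a transcriptome assembled from the reads. The table pairs none with a name or a sequence, so what each encodes, and the leaf's marker genes, were not analysed here.

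Plants sense red light mainly through phytochromes, photoreceptors whose active form enters the nucleus and alters the transcription of many genes. Beside such light-regulated genes stand transcripts for functions that every living cell keeps up, such as translation, protein turnover and the cytoskeleton. Transcripts of even level serve as reference genes, against which the level of other genes is read in quantitative PCR. Whether any gene below belongs to one of those functions cannot be said from its identifier.

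Because the CV over all 6 libraries chose the genes, their CV, their range and their ratio of red to control are descriptions and carry no test. The CV of the 200 genes ran from 2.25% to 8.82% with a median of 7.22%, where the median of the 6318 eligible genes was 27.6%. The highest library of a gene exceeded its lowest by 1.07-fold to 1.30-fold (median 1.21-fold), against a median of 2.12-fold over the eligible genes. In all 6 libraries, 79 of the 200 genes stayed within 10% of their own mean. At the limit of the list lay TRINITY_DN7036_c0_g1 and TRINITY_DN2083_c0_g1, both at 8.82%, just inside, and TRINITY_DN3303_c0_g1 and TRINITY_DN323_c0_g2, both at 8.83%, just outside. The list therefore ends at no gap in the CV.

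The most even gene was TRINITY_DN30651_c0_g1, which stood at 32.4, 32.7 and 32.6 CPM in red replicates 1 to 3 and at 32.6, 34.0 and 31.8 CPM in control replicates 1 to 3, a CV of 2.25%. Its red libraries differed among themselves less than its controls did, with CVs of 0.374% and 3.46%. Both lie under the 3.91% that counting error alone gives, so nothing is read from that contrast. TRINITY_DN612_c0_g1 came next, at 128, 125 and 135 CPM in red and 131, 132 and 126 CPM in control, a CV of 3.03%. TRINITY_DN5376_c0_g1 had 118, 121 and 111 CPM in red and 113, 119 and 118 CPM in control (CV 3.25%). In both genes the lowest and the highest library were both red ones. TRINITY_DN2169_c0_g1 had 140, 129 and 140 CPM in red and 134, 140 and 140 CPM in control (CV 3.40%). TRINITY_DN65484_c0_g1 had 56.5, 57.3 and 55.3 CPM in red and 60.5, 57.0 and 59.8 CPM in control (CV 3.53%). Red and control overlapped in each of these 5 genes, and the ratio of mean CPM in red to that in control lay between 0.953 and 0.998.

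**Figure D1:**
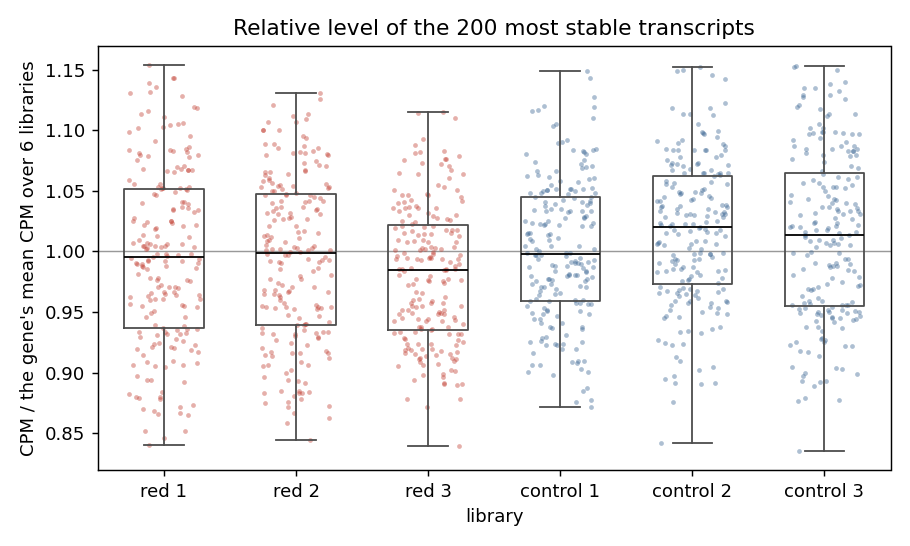
Level of each of the 200 most stable transcripts in each library, as its CPM divided by its own mean CPM over the 6 libraries (1 point per gene, red libraries left, control libraries right). Boxes show the quartiles and the median, and whiskers reach the lowest and highest gene; the medians lie between 0.985 in red replicate 3 and 1.02 in control replicate 2, and no gene leaves the span from 0.835 to 1.15.

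The stable genes covered most of the abundance range of the eligible genes, but not its top. Their means ran from 20.5 to 788 CPM with a median of 53.9 CPM, where the eligible genes reached 2060 CPM with a median of 44.3 CPM. They made up 2.64% of the eligible genes with a mean of 20 to 50 CPM (92 genes), 3.70% at 50 to 100 CPM (51), 4.69% at 100 to 200 CPM (35) and 3.13% above 200 CPM (22). None of the 100 genes most abundant in control would have entered, since the same 200 genes are obtained with those 100 kept in. The most abundant stable gene was TRINITY_DN5489_c0_g1, at 830, 738 and 734 CPM in red and 786, 776 and 866 CPM in control. TRINITY_DN8795_c1_g1 followed with 664, 549 and 572 CPM in red and 536, 614 and 548 CPM in control. Both had their groups overlapping, and red replicate 1 was the highest red library in each. The scarcest were TRINITY_DN2080_c0_g1, with 22.6, 22.1 and 18.8 CPM in red and 19.0, 21.0 and 19.4 CPM in control, and TRINITY_DN2299_c0_g1, with 19.1, 22.0 and 20.9 CPM in red and 21.6, 21.2 and 18.5 CPM in control.

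Depth set a floor under these spreads that differed with abundance. The raw count of a stable gene in a library ranged from 342 to 19905. Counting error alone gives a CV of 4.94% for the scarcest of the 200 genes and of 0.796% for the most abundant, with a median of 3.04%. The measured CV was a median of 2.26 times that floor, and 8.97 times over all eligible genes. In 74 of the 200 genes it was less than 2 times the floor, and in 2 it lay below the floor, which are TRINITY_DN30651_c0_g1 (2.25% against 3.91%) and TRINITY_DN11557_c0_g1 (3.55% against 3.89%). These 2 were the only eligible genes under their floor. By class, the median ratio to the floor was 1.85 at 20 to 50 CPM, 2.59 at 50 to 100 CPM, 3.68 at 100 to 200 CPM and 5.71 above 200 CPM, while the median CV stayed between 7.04% and 7.68%. The floor covers counting error only.

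**Figure D2:**
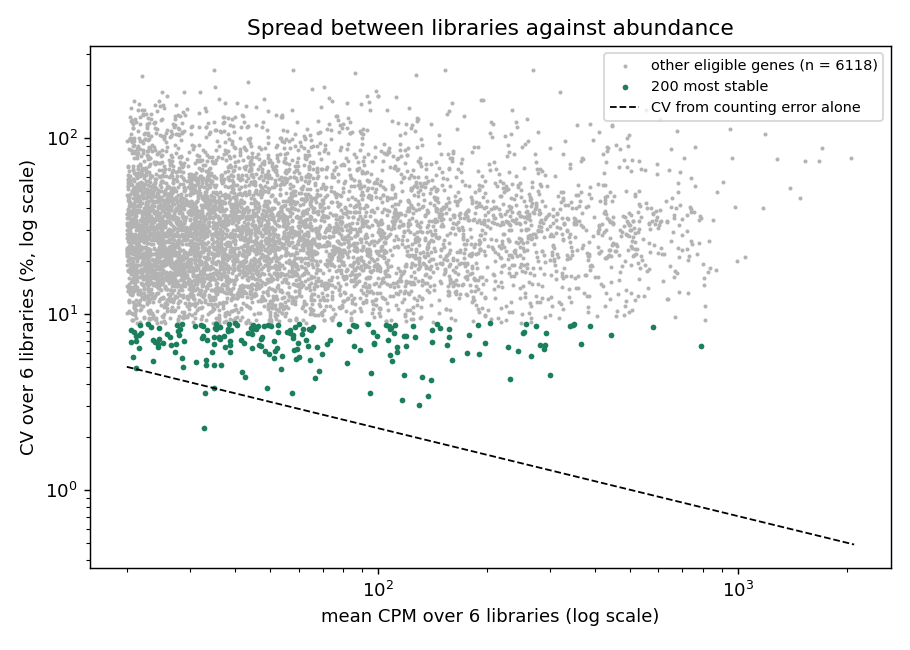
CV over the 6 libraries against mean CPM for the 6318 eligible genes (both axes logarithmic), with the 200 most stable in green and the others in grey. The dashed line is the CV that counting error alone would give; the green points lie between 2.25% and 8.82% at every abundance, and 2 of them lie under the line.

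Within each light treatment the 200 genes were about as even in red as in control, which was not so of the eligible genes at large. Their median CV was 6.70% among the red libraries and 6.15% among the controls, against 26.9% in red and 15.3% in control over the eligible genes. The control CV was the lower one in 110 of the 200 genes (55.0%) and in 74.5% of the eligible genes. The limit on the CV over all 6 libraries also bounds the CV within each group, which reached 13.1% at most in both. Nothing is therefore read from this contrast with the eligible genes. The libraries took part unequally in the extremes. Red replicates 1, 2 and 3 held the highest value of 38, 32 and 17 of the 200 genes, and control replicates 1, 2 and 3 that of 26, 39 and 48. The lowest value fell in red replicates 1, 2 and 3 in 42, 46 and 46 genes and in control replicates 1, 2 and 3 in 22, 16 and 28. The red libraries thus held 134 of the 200 lowest values (67.0%) and 87 of the highest (43.5%), close to their shares over the eligible genes of 71.6% and 42.3%. Together the 200 genes took 1.84% ± 0.0292 of all counts in red leaves and 1.88% ± 0.0171 in control leaves (SD, n = 3 each).

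No stable gene passed the test between light treatments. Over the 36013 genes tested, edgeR's quasi-likelihood test called 0 genes at a Benjamini-Hochberg adjusted p under 0.05, so the background is 0% and the 0 of 200 members cannot be read as particular to them. At an unadjusted p under 0.05 the test listed 8.81% of all tested genes and 0 of the 200. The genes were chosen by low spread over the same libraries, so nothing is read from that difference. Limma-voom also called 0 of all genes. At an unadjusted p under 0.05 it listed 3646 of the 36013 genes and 0 of the 200, and nothing is read from that difference either. The smallest edgeR adjusted p among the 200 was 0.60. Their log2 fold changes from edgeR, red over control, lay between -0.07 and 0.34, with standard errors of 0.15 to 0.19. The gene-wise biological CV that edgeR estimates, drawing each gene's spread toward that of other genes, was 24.1% to 26.1% for the 200 genes. The value common to all tested genes was 95.5%. Both are estimated within groups. The highest measured CV of the 200 over all 6 libraries was 8.82% on total counts and 13.5% with edgeR's own library scaling.

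DESeq2, the other count test, called 2 of the 200 genes, both higher in red, where it called 4.58% of all genes with an adjusted p. At an unadjusted p under 0.05 it listed 14 of the 200 and 12.7% of all tested genes. They are named here after their values were seen. TRINITY_DN3255_c0_g1, which also had the highest edgeR fold change of the 200, stood at 118, 114 and 116 CPM in red and 98.4, 108 and 96.7 CPM in control. All its red libraries lay above all its controls, by a DESeq2 log2 fold change of 0.36 ± 0.09 (standard error; DESeq2 adjusted p = 0.0015, edgeR adjusted p = 0.603). TRINITY_DN3616_c0_g1 stood at 108, 101 and 100 CPM in red and 91.4, 93.8 and 91.2 CPM in control, again without overlap (DESeq2 log2 fold change 0.32 ± 0.10, DESeq2 adjusted p = 0.038, edgeR adjusted p = 0.676). In both the ratio of mean CPM was small, 1.15 and 1.12, so a gene may be even by the CV over all libraries and still keep its groups apart.

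Groups that did not overlap were found in 22 of the 200 genes by CPM, with red higher in 4 and lower in 18. The background over the eligible genes was 7.33% with red higher and 22.1% with red lower, and since the choice used these values nothing is read from the lower shares of 2.00% and 9.00% among the 200. The 4 with red higher are the 2 genes above, TRINITY_DN408_c0_g1 (34.6, 35.7 and 37.6 CPM in red, 31.5, 33.3 and 33.9 CPM in control) and TRINITY_DN21534_c0_g1 (59.9, 60.7 and 62.4 CPM in red, 50.8, 58.7 and 55.3 CPM in control), the last 2 singled out after their values were seen. The lowest edgeR fold change of the 200, a log2 value of -0.07 ± 0.16, belonged to TRINITY_DN4352_c0_g1. It stood at 233, 246 and 237 CPM in red and 287, 279 and 263 CPM in control, a ratio of mean CPM of 0.863 with every red library under every control. At the edge of the list TRINITY_DN7036_c0_g1 was of the same kind, with 183, 197 and 193 CPM in red and 230, 201 and 222 CPM in control. TRINITY_DN2083_c0_g1 had 40.9, 35.4 and 36.4 CPM in red and 41.2, 45.0 and 41.4 CPM in control, where the highest red library lay just under the lowest control.

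Which side of control the stable genes stood on depended on how libraries were scaled. By CPM, on total counts, 71 of the 200 genes were higher and 129 lower in red, with a median ratio of 0.979 (0.863 to 1.15). With the trimmed mean of M-values (TMM), which scales libraries so that most genes keep their level, 180 were higher and 20 lower in red, with a median ratio of 1.08 (0.955 to 1.27). The TMM library size relative to the total count was 0.932, 0.952 and 0.969 in red replicates 1 to 3 and 1.04, 1.09 and 1.03 in control replicates 1 to 3. Tested genes took 88.7% of the counts in red replicate 1 and between 95.6% and 96.7% in the other 5 libraries. In the edgeR test the median log2 fold change of the 200 genes was 0.11 with TMM and 0.01 with library size alone, and that of all tested genes was 0.00 and -0.11. The filter kept more genes when 1 library was left out. Without 1 control library, the TMM median was 0.09 to 0.11 for the 200 and 0.08 to 0.10 for all tested genes. Without 1 red library, it was 0.10 to 0.13 for the 200 and -0.04 to 0.04 for all tested genes. Over the eligible genes it stayed between -0.07 and -0.04 in each of these runs.

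The set itself changed with the scaling. When the same rule was run on TMM-scaled CPM, 93 of the 200 genes were chosen again, with 107 others. The median CV of the new set was 6.79%, which the rule itself keeps low. On TMM-scaled CPM the original 200 genes had CVs from 2.11% to 13.5% with a median of 8.31%. Their groups then did not overlap with red higher in 44 genes, where the eligible genes gave 11.1%, and with red lower in 0 genes, where the eligible genes gave 12.3%. The choice kept red and control close on total counts, and TMM raised the ratio of red to control. This split therefore follows from the choice and the scaling, and nothing is read from it. TRINITY_DN3255_c0_g1 then had a CV of 13.3% and a ratio of 1.27 in red over control. TRINITY_DN30651_c0_g1 had a CV of 5.27% and a ratio of 1.1 there. TRINITY_DN4352_c0_g1 became more even with TMM, at a CV of 4.03% and a ratio of 0.955. Of the 200 genes, 80 were chosen under both TMM and DESeq2's size factors.

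**Figure D3:**
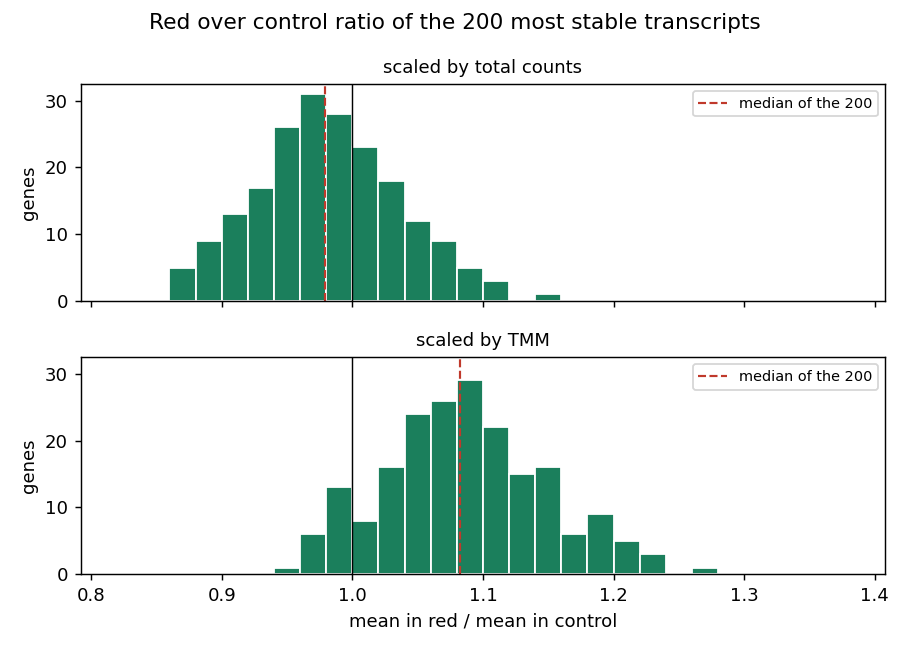
Ratio of the mean in red to the mean in control for the 200 most stable transcripts, as numbers of genes per interval of the ratio, with libraries scaled by total counts (top) and by TMM (bottom). The black line marks a ratio of 1 and the dashed line the median, which is 0.979 by total counts and 1.08 by TMM.

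How far evenness carried over to a library that had no part in the choice was read by running the rule on 5 libraries and looking at the sixth. Of the 200 genes chosen without red replicate 1, 76.0% lay within 25% of their mean over the other 5 libraries when read in red replicate 1, where 39.1% of all eligible genes did. The share was 86.0% in red replicate 2 (eligible genes 48.4%) and 89.0% in red replicate 3 (65.0%). In the controls it was 95.0% in replicate 1 (64.0%), 84.5% in replicate 2 (52.9%) and 86.0% in replicate 3 (59.3%). The chosen genes thus stood above the eligible genes in each of the 6 libraries, and red replicate 1 was the lowest for both. The median absolute log2 ratio of the left-out library to the other 5 was 0.24 for chosen and 0.51 for eligible genes in red replicate 1, and 0.10 and 0.24 in control replicate 1. The 6 readings share libraries and are not independent.

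The left-out library departed in 1 direction more than in the other. Of the genes chosen without red replicate 1, 99 lay in it below all of the other 5 libraries and 56 above all of them. For red replicate 2 these numbers were 79 below and 55 above, and for red replicate 3 they were 106 below and 25 above. Among the controls, 37 lay below and 50 above in replicate 1, 33 below and 88 above in replicate 2, and 54 below and 76 above in replicate 3. On total-count scaling, each red library was thus more often the low one and each control more often the high one. The 6318 eligible genes leaned the same way. Among them, red replicates 1 to 3 were lowest in 35.5%, 20.5% and 15.6% and highest in 18.7%, 14.8% and 8.75%. Control replicates 1 to 3 were lowest in 7.30%, 9.69% and 11.4% and highest in 13.0%, 27.3% and 17.4%. A small spread over 5 libraries makes the sixth more likely to fall outside them, so the counts are a description.

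**Figure D4:**
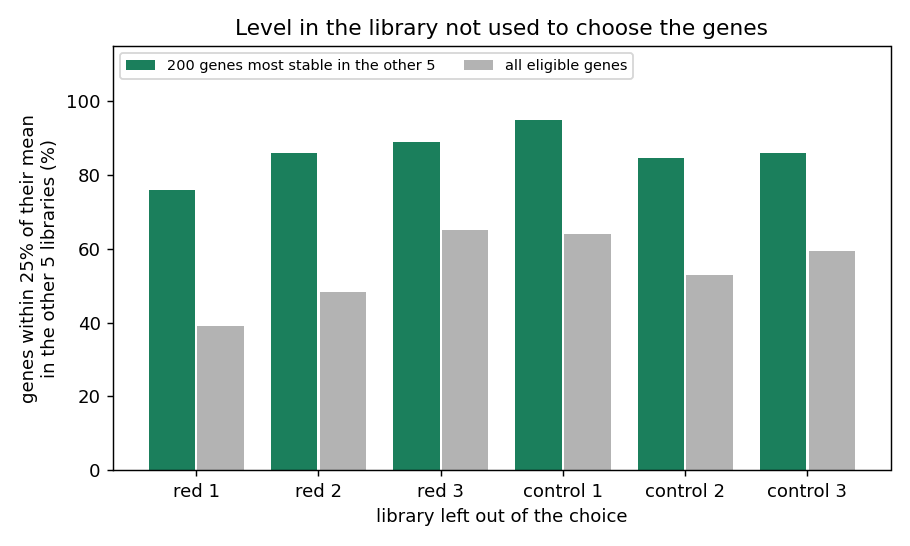
Share of genes whose CPM in a library lay within 25% of their mean CPM in the other 5 libraries, for the 200 genes most stable in those 5 (green) and for all eligible genes (grey). Chosen genes reach 76.0% to 95.0% and eligible genes 39.1% to 65.0%, lowest for both in red replicate 1.

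A few genes that were even in 5 libraries departed by more than 2-fold in the sixth, 6 in all over the 6 runs. They were named after their values were seen. TRINITY_DN5008_c0_g1 stood at 39.3, 40.3 and 41.5 CPM in red and at 42.8 and 41.9 CPM in control replicates 2 and 3, a CV of 3.32% over those 5 libraries, and at 3.27 CPM (59 counts) in control replicate 1. Its level there was 0.0795 times that of the other libraries. TRINITY_DN1269_c0_g1 stood at 84.2 CPM in red replicate 1, and at 31.7 and 30.1 CPM in red replicates 2 and 3 and 30.8, 30.1 and 33.4 CPM in the controls. It was 2.69 times as high in red replicate 1 as in the others.

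The remaining 4 genes also departed in a red library. TRINITY_DN4702_c0_g2 stood at 25.1 CPM in red replicate 1, against 60.2 and 59.6 CPM in the other red libraries and 61.5, 67.6 and 63.7 CPM in the controls. TRINITY_DN1404_c0_g2 stood at 59.6 CPM in red replicate 1, against 139 and 131 CPM in the other red libraries and 133, 152 and 144 CPM in the controls. Both were low in that 1 library alone. TRINITY_DN2170_c0_g1 (93.7 CPM) and TRINITY_DN3384_c0_g1 (70.4 CPM) were high in red replicate 2, where their other libraries lay between 34.8 and 40.7 CPM and between 31.3 and 39.0 CPM. Of the genes chosen, such departures made up 1.50% in red replicate 1, 1.00% in red replicate 2 and 0.500% in control replicate 1, where 23.6%, 16.3% and 8.21% of the eligible genes departed as far.

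**Figure D5:**
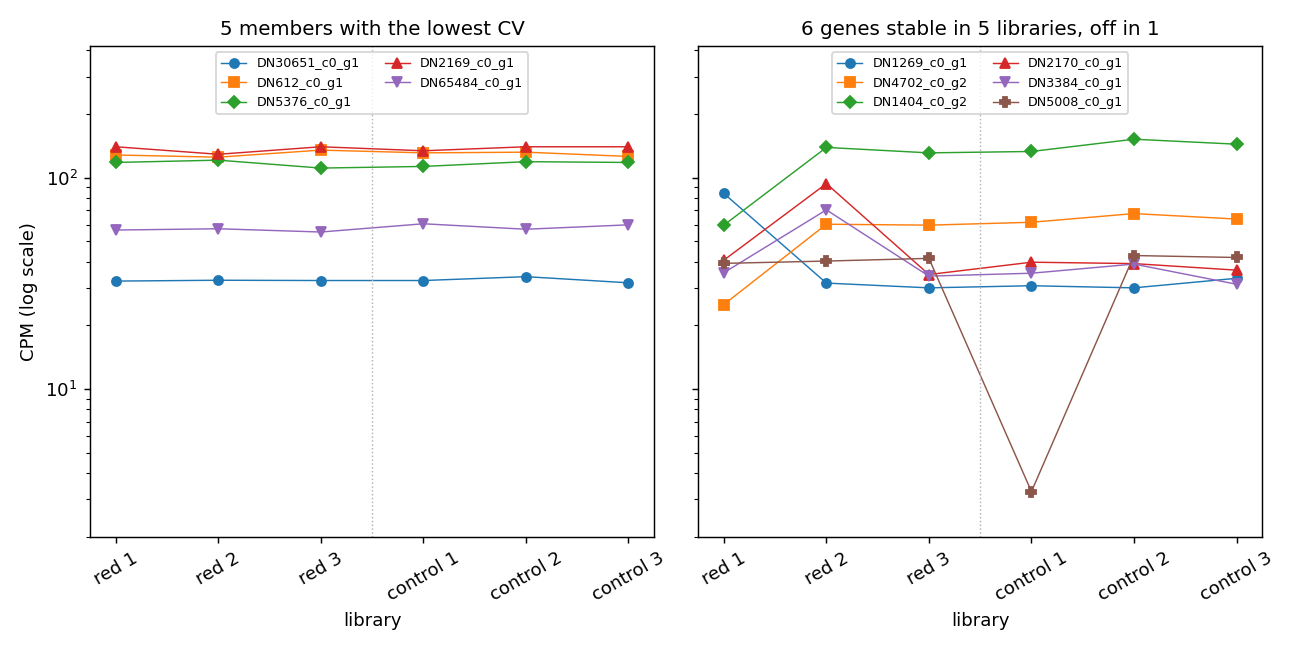
CPM by library (logarithmic axis, red libraries left of the dotted line) for the 5 members with the lowest CV (left panel) and for the 6 genes that were even in 5 libraries and more than 2-fold off in the sixth (right panel); lines join the values of 1 gene. The left panel runs flat, and the right panel shows departures in red replicates 1 and 2 and, for TRINITY_DN5008_c0_g1, in control replicate 1.

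Evenness among the libraries of 1 light treatment carried over to the other treatment in part. When the rule was run on the 3 red libraries alone, the 200 genes chosen had CVs up to 4.60% in red, and 73.0% of them had a control mean within 25% of their red mean, against 45.8% of the eligible genes. When it was run on the 3 controls alone, the CVs reached 2.99% and 62.0% of the genes had a red mean within 25% of their control mean, against 49.9% of the eligible genes. The median CV was 3.32% in red for the first list and 2.01% in control for the second. Counting error alone gives a median CV of 3.36% over the 6318 genes eligible on all 6 libraries. Evenness among 3 libraries may thus lie partly in the draw of counts, which was not tested. Of the genes even in control, 81.0% lay within 25% of the control mean in red replicate 3, 52.5% in red replicate 2 and 41.5% in red replicate 1. The genes even in red had a median CV of 11.3% in control (eligible genes 15.3%), and the genes even in control had a median CV of 17.1% in red (eligible genes 26.5%). Of the 200 stable genes, 56 were among the genes even in red and 25 among those even in control. The 100 genes most abundant in control were left out of both choices. The limit of 20 CPM was set in the choosing treatment only, which left 6073 eligible genes for red and 6355 for control.

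On total counts, the genes even in 1 treatment stood lower in red more often than higher, as the eligible genes did. Of those even in red, 20 had all red libraries above all controls and 81 below, where 9.25% and 18.8% of their eligible genes did. Of those even in control, 18 lay above and 89 below, where the eligible genes gave 4.83% and 25.3%. With choice and reading on TMM, the split turned for the genes even in red, with 53 above and 40 below (eligible genes 13.4% and 9.69%). For those even in control it narrowed to 33 above and 49 below (eligible genes 8.13% and 14.5%). Evenness in 1 group makes groups less likely to overlap, and an abundance limit in 1 treatment favours genes that are higher there. These counts are therefore a description. On total counts, the eligible genes had a median ratio of red to control of 0.932 for the red choice and 0.832 for the control choice. The median ratio of red to control was 0.898 for the genes even in red and 0.868 for those even in control on total counts, and 0.985 and 0.982 when both choice and reading used TMM. The edgeR test called 0 of either 200. At an unadjusted p under 0.05 it listed 21 of the genes even in red (10.5%, eligible genes 17.5%) and 33 of those even in control (16.5%, eligible genes 14.5%).

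The widest differences among them were found in genes even in control, again named after their values were seen. TRINITY_DN27_c0_g1 stood at 227, 154 and 74.8 CPM in red and at 43.4, 44.8 and 44.6 CPM in control, a difference that edgeR put at 1.93 ± 0.41 (log2 fold change and standard error) with an adjusted p of 0.27 and DESeq2 at an adjusted p of 7.7e-04. TRINITY_DN10797_c0_g1 stood at 3.88, 2.39 and 16.1 CPM in red and at 51.2, 52.5 and 52.6 CPM in control (-2.68 ± 0.71 by edgeR, with an adjusted p of 0.28, and an adjusted p of 0.0075 by DESeq2). In both, red replicate 3 lay nearest to the controls. Neither passed the edgeR test, and both passed DESeq2's. TRINITY_DN10797_c0_g1 entered by its control level alone, since its red mean of 7.45 CPM lay under the limit of 20 CPM.

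The assembly's own grouping was not used by the rule. In Trinity's naming, genes that share a DN number and a c number come from 1 cluster of reads, and genes that share the DN number alone form a wider group. The 200 stable genes fell in 200 different read clusters and in 200 different DN groups. A stable gene was the single gene of its read cluster in 141 cases (70.5%, against 66.0% of the eligible genes) and of its DN group in 91 cases (45.5%, against 40.0%). The other 59 had 80 mates in their read clusters, of which 18 passed the abundance limits without being chosen. The CVs of these 18 ran from 13.9% to 94.4% with a median of 23.3%, where eligible genes that share a read cluster holding no stable gene had a median of 31.8%. In the DN groups, 56 such mates had a median CV of 22.6%, against 30.1% in DN groups with no stable gene. Mates may share reads with the stable gene, and without sequences such a split cannot be checked.

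In the 59 read clusters with several genes, the stable gene held a median of 88.0% of the cluster's level, and under 50% of it in 8. The summed level of the whole cluster had a median CV of 8.57%, where the stable genes in them had 7.51%. It stayed at or under 8.82% in 32 clusters and exceeded it in 27. The least even mate was TRINITY_DN1258_c0_g2, with 4.41, 68.0 and 11.2 CPM in red and 39.1, 7.81 and 24.0 CPM in control. The stable gene of its cluster, TRINITY_DN1258_c0_g1, stood at 343, 357 and 333 CPM in red and 369, 287 and 358 CPM in control. A gene could thus be even while an assembled relative of it varied 15.4-fold between libraries.

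Part of the list was chosen again with any 1 library left out and under both TMM and DESeq2's size factors. These runs reuse the libraries that chose the list, so genes of low CV tend to return and the counts are a description. Of the 200 genes, 78 were chosen again whichever 1 library was left out, and 41 of them also under both TMM and DESeq2's size factors. The 5 genes with the lowest CV were all among these 41. With TMM scaling their CVs were 5.27%, 5.90%, 6.90%, 6.40% and 5.07% in the order given above, and their ratios of red to control were 1.1, 1.1, 1.1, 1.09 and 1.05. At the other end, 27 of the 200 genes were chosen again in at most 1 of the 6 runs with a library left out.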

How the data were processed

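Per the labels' protocols, total RNA from about 50 mg of leaf was treated with DNase and sequenced on the Illumina NovaSeq platform, paired-end with 150 bp per read. The authors deposited 1 table of whole-number counts, with 127290 assembled genes and 1 column per library. The row names follow the naming of the Trinity de novo assembler; how reads were assembled, aligned and counted is not given in the sources used here. Totals ran from 18839959 to 22673552 counts in red and from 18040162 to 22992137 in control. Across the tested genes, libraries correlated with Pearson's r of 0.74 to 0.78 within red and 0.79 to 0.81 within control. Between red and control r was 0.73 to 0.79 (all on TMM-scaled log2 CPM).

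CPM were computed on the column totals, and the CV used the SD with n - 1. The counting floor is the CV that Poisson error gives at a gene's mean CPM. The test between treatments was edgeR's quasi-likelihood test (4.0.16, R 4.3.3) on all 6 libraries with treatment as the only term, filterByExpr, TMM scaling and Benjamini-Hochberg adjustment over all 36013 genes tested, two-sided. All 200 members passed that filter. DESeq2 (1.42.0), limma-voom (limma 3.58.1), other filters and scalings, a block for replicate numbers and fits with 1 library left out were alternatives. Standard errors came from the F statistic. Scripts were tested on simulated data.

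The members, the lists and the tests were chosen with earlier results of these data known. Genes were named by rule: the 5 members with the lowest CV, the 2 most and the 2 least abundant, the highest and lowest fold change, and 2 on either side of the CV limit; others are stated as named after their values were seen. Lists of plant reference genes and leaf cell type markers could not be applied, because the table holds no gene names.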

Additional observations from a re-analysis of the deposited data

How the results depend on the processing

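The number of members chosen again was 93 with TMM, 80 with DESeq2's size factors, 108 with a mean of at least 50 CPM (median CV 8.67%), and 109 to 157 with 1 library left out, lowest without red replicate 1 (median CV 5.82% to 7.01%). Between 141 and 200 came back with a mean of at least 10 CPM, the 100 most abundant genes kept, the SD of log2(CPM + 1), the range over the mean, and 2 alternatives added after seeing the data, which were the CV less counting error (180) and totals over tested genes (141). The cause of these shifts was not tested. DESeq2 called 2 members, where edgeR under each other setting called 0, and so did limma-voom. Leaving out 1 library, edgeR called 0 members each time. Over all genes, edgeR called 254 without a filter and DESeq2 called 1636. With 1 library left out, edgeR called 0 to 43, the highest without red replicate 3. The members' median log2 fold change was 0.13 with DESeq2's size factors in edgeR and 0.13 with DESeq2, 0.01 with library size alone and 0.09 to 0.13 with 1 library left out. Widening the tolerance from 25% to 50%, or narrowing it to 10%, gave left-out shares of 98.8% and 47.5% in place of 86.1%. For genes even in red read in control they gave 96.5% and 33.5% in place of 73.0%, and TMM gave 83.5%. For genes even in control read in red they gave 93.5% and 24.5% in place of 62.0%. With 1 library of the treatment that was read left out, the share was 73.0% to 75.0% for genes even in red and 51.5% to 64.5% for genes even in control. The summed share, red minus control, was -0.0607 to -0.0332 percentage points with 1 library left out. The median CV of cluster mates was 22.6% by DN group and 23.3% by Trinity read cluster, a grouping added after seeing the data. Replicate numbers did not pair the libraries: same-numbered red and control libraries correlated at -0.06, -0.02 and -0.05 in their deviations from group means, and 0 of 6 correlated best with its own number. The fit with the replicate block called 0 genes and 0 members, with a median log2 fold change of 0.11. Depth limits the CV most near 20 CPM, where the counting floor is highest.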

Other observations

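The lists of genes even in red and of genes even in control shared 10 genes, of which 5 were among the 200 stable ones and 5 were not. By CPM on total counts the groups did not overlap in 8 of the 10, with red higher in 2 and lower in 6, where the eligible genes gave 7.33% and 22.1%. On TMM-scaled CPM red was higher without overlap in 3 and lower in 3, where the eligible genes gave 11.1% and 12.3%. Each of the 10 had a small CV within both light treatments, for which both lists chose it. TRINITY_DN197_c0_g1 had 26.2, 24.3 and 25.2 CPM in red and 45.3, 45.3 and 45.4 CPM in control, so its CV was 3.63% in red, 0.161% in control and 31.2% over all 6 libraries. Counting error alone gives this gene a CV of 3.76%, so both CVs within a treatment lay under that floor. Its edgeR log2 fold change was -0.70 ± 0.16 (standard error), which did not pass (adjusted p of 0.27, against 6.2e-06 by DESeq2). The ratio of red to control was below 1 for TRINITY_DN197_c0_g1 (0.616) and TRINITY_DN7968_c0_g1 (0.859) on TMM-scaled CPM too, and above 1 for TRINITY_DN8446_c0_g1 (1.33). TRINITY_DN7968_c0_g1 had 31.8, 32.6 and 31.7 CPM in red and 42.2, 41.4 and 40.3 CPM in control. TRINITY_DN8446_c0_g1 was higher in red, with 29.9, 32.2 and 31.1 CPM in red and 26.0, 25.7 and 26.0 CPM in control. These 3 genes were singled out after their values were seen, and both lists chose genes for a small spread within a group, which by itself keeps groups from overlapping.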
